A study of Mus musculus with 2 samples.

Results

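Lipid-associated macrophage genes are a set of transcripts that macrophages carry when they handle lipid and dying cells, and 10 of them were followed here in single-cell RNA-Seq data of mouse liver. The genes are Trem2, Tyrobp, Gpnmb, Cd9, Cd63, Lgals3, Ms4a7, Atp6v0d2, Axl and Mertk. Each was taken as the row of the count matrices whose gene symbol equals that name, and all 10 were found among the 32285 genes of each matrix.

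Liver cells of WT mice were compared with cells of N-LKO mice, in which Cre recombinase driven by the albumin promoter removes loxP-flanked Nus1 in hepatocytes. Nus1 encodes NgBR, a partner of the prenyltransferase in dolichol synthesis. Both groups were male mice on the C57BL6 background and had been fed a lipid-rich diet for 16 weeks, which the sample titles call HFD and the treatment labels call WD. The WT library was made from liver (genotype label CTRL) and the N-LKO library from liver plus tumor, with hepatocytes and nonparenchymal cells mixed before loading and tumor cells added to the N-LKO mixture. There was 1 library per group, so genotype, tumor tissue and library cannot be told apart, no test across samples was possible and no p-values were computed. Because macrophages were not the cells in which Cre acts, any difference in them is a difference between macrophages of these 2 livers and not between macrophages with and without Nus1. Nus1 itself was at 74.3 CPM (a gene's UMIs relative to all UMIs of the class) in WT hepatocyte-like cells (95% interval 70.2 to 78.6) and 39.3 CPM (33.8 to 45.4) in N-LKO hepatocyte-like cells, whereas it was at 81.7 and 91.1 CPM in Kupffer-like cells.

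Kupffer cells are the resident macrophages of the liver and sit in the sinusoids, where they carry C-type lectin Clec4f and the phosphatidylserine receptor Timd4. Macrophages in fatty or injured liver can take on a state marked by the lipid receptor TREM2, which signals through the adaptor TYROBP (DAP12), by the transmembrane glycoprotein GPNMB, and by tetraspanins and lysosomal proteins. AXL and MERTK are receptor tyrosine kinases of the TAM family, which bind apoptotic cells through the bridging ligands GAS6 and protein S.

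RefSeq (GRCm38.p6) listed promoter sequences for 8 of the 10 genes, Tyrobp and Atp6v0d2 being without an entry. The 250 bases before the transcription start are shown for Trem2, Gpnmb and Cd63, a receptor, a debris-linked glycoprotein and a lysosomal tetraspanin with over 2-fold differences in Kupffer-like cells. Capitals mark a match to TGANTCA, an AP-1-like pattern whose middle base N may be any base. This pattern was searched on both strands and was found in 6.87% of 27025 mouse promoters of this length. The intervals are chr17:48346151-48346400 on the plus strand for Trem2, chr6:49036268-49036517 on the plus strand for Gpnmb, and chr10:128909095-128909344 on the plus strand for Cd63, whose window lies inside the longer gene span that GENCODE gives.
Trem2: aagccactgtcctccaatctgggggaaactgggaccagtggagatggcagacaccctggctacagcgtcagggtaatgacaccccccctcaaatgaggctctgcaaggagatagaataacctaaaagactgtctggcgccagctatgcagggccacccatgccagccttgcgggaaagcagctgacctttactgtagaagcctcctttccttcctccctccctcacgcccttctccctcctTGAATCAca
Gpnmb: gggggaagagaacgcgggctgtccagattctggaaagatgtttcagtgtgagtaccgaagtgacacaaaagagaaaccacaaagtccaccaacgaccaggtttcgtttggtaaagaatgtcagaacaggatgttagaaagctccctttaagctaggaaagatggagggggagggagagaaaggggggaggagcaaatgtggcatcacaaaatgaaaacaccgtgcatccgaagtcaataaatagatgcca
Cd63: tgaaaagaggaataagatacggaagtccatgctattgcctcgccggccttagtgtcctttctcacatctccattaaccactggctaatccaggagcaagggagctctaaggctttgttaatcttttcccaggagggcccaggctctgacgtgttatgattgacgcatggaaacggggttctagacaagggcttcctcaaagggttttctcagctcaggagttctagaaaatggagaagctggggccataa

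Trem2 held 1 match to the AP-1-like pattern, with A as its middle base, beginning 9 bases before the start. The Gpnmb and Cd63 windows held none. The patterns TCANGTGA (MiT/TFE), GAGGAAGT (PU.1) and CACGTG (E-box) were also searched and had no match in the windows shown. Of the promoters not shown, that of Lgals3 held 1 match to TCANGTGA, and 1 Ms4a7 promoter held 1 match to TGANTCA. Motifs are given as letters only and say nothing about binding. On GRCm38 the genes span 3.8 kb (Tyrobp) to 103.9 kb (Mertk). Trem2 lies at chr17:48346401-48354147, Gpnmb at chr6:49036546-49070929 and Cd63 at chr10:128900989-128912822. Antisense genes overlap Mertk (Gm14011, by 2435 bases) and Cd9 (Gm28809, by 3316 bases). The use of strand in counting is not given in the sources used here, so reads of these pairs may not be told apart.

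The matrices held 85522287 unique molecular identifiers (UMIs, each standing for 1 captured transcript) in 100171 WT barcodes and 87575064 UMIs in 90147 N-LKO barcodes. After filters, 18434 WT and 19851 N-LKO cells remained, with medians of 1401 and 1454 UMIs per cell. The libraries shared 2499 barcodes, and 122 barcodes were shared among the kept cells. Cells were clustered without the 10 genes, so the levels of the 10 genes did not shape the clusters. The UMIs of all cells of 1 class were added up within a library to give CPM, and intervals cover counting error only.

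The Kupffer-like class held 1455 WT and 3100 N-LKO cells, and different clusters made it up in the 2 libraries. Of the WT cells, 1420 lay in a cluster led by Clec4f, Cd5l and Vsig4, and of the N-LKO cells, 3061 lay in a cluster led by Mmp12, Gpnmb and Lpl. The 10 Kupffer markers summed to 9527 (WT) and 5782 (N-LKO) CPM, and all 10 were lower in N-LKO. Clec4f was at 1533 CPM in WT against 814 CPM in N-LKO, Timd4 at 199 against 38.2 CPM, and Cd163 at 245 against 4.06 CPM. The complement genes C1qa, C1qb and C1qc, which both kinds of liver macrophage carry, summed to 4535 and 4565 CPM. Of 11 monocyte markers with sufficient counts, 6 were at least 2-fold higher in N-LKO, among them Ccr2, the chemokine receptor of inflammatory monocytes, at 37.0 against 116 CPM, and the list summed to 401 and 698 CPM. The larger N-LKO cluster had 8 of the 10 Kupffer markers at least 2-fold over the median of all clusters, most of them not macrophages. Its name came from a score placing each marker between this median and the highest cluster, averaged over both libraries with 35 WT cells included. The Kupffer score was 0.437, against 0.891 for the mostly WT cluster. The part of these marker differences in the levels of the 10 genes was not tested beyond narrowing the class. The monocyte-derived macrophage-like class held 771 WT and 1462 N-LKO cells and was likewise made of a mostly WT cluster (748 cells) and a mostly N-LKO cluster (1412 cells), both led by F13a1.

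The 10 genes were not equally restricted to macrophages. Trem2, Gpnmb, Ms4a7, Atp6v0d2 and Axl had their highest level in Kupffer-like or cycling Kupffer-like cells in both libraries, and so did Mertk. Cd9, a tetraspanin that organizes membrane proteins, was highest in cholangiocyte-like and neutrophil-like cells, whose intervals overlapped (184 and 179 CPM in WT, 171 and 224 in N-LKO). In N-LKO the interval of cycling Kupffer-like cells (156 CPM, 120.4 to 199.6) overlapped both, and that of Kupffer-like cells (147 CPM, 136 to 158) overlapped that of cholangiocyte-like cells. Tyrobp, the adaptor that TREM2 shares with many immune receptors, reached 1828 CPM (1682 to 1983) in WT plasmacytoid dendritic-like cells, above the 1425 CPM (1375 to 1477) of WT Kupffer-like cells. In N-LKO this order did not hold, with Kupffer-like cells at 1627 CPM (1592 to 1663) and plasmacytoid dendritic-like cells at 1545 CPM (1459 to 1635).

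**Figure D1:**
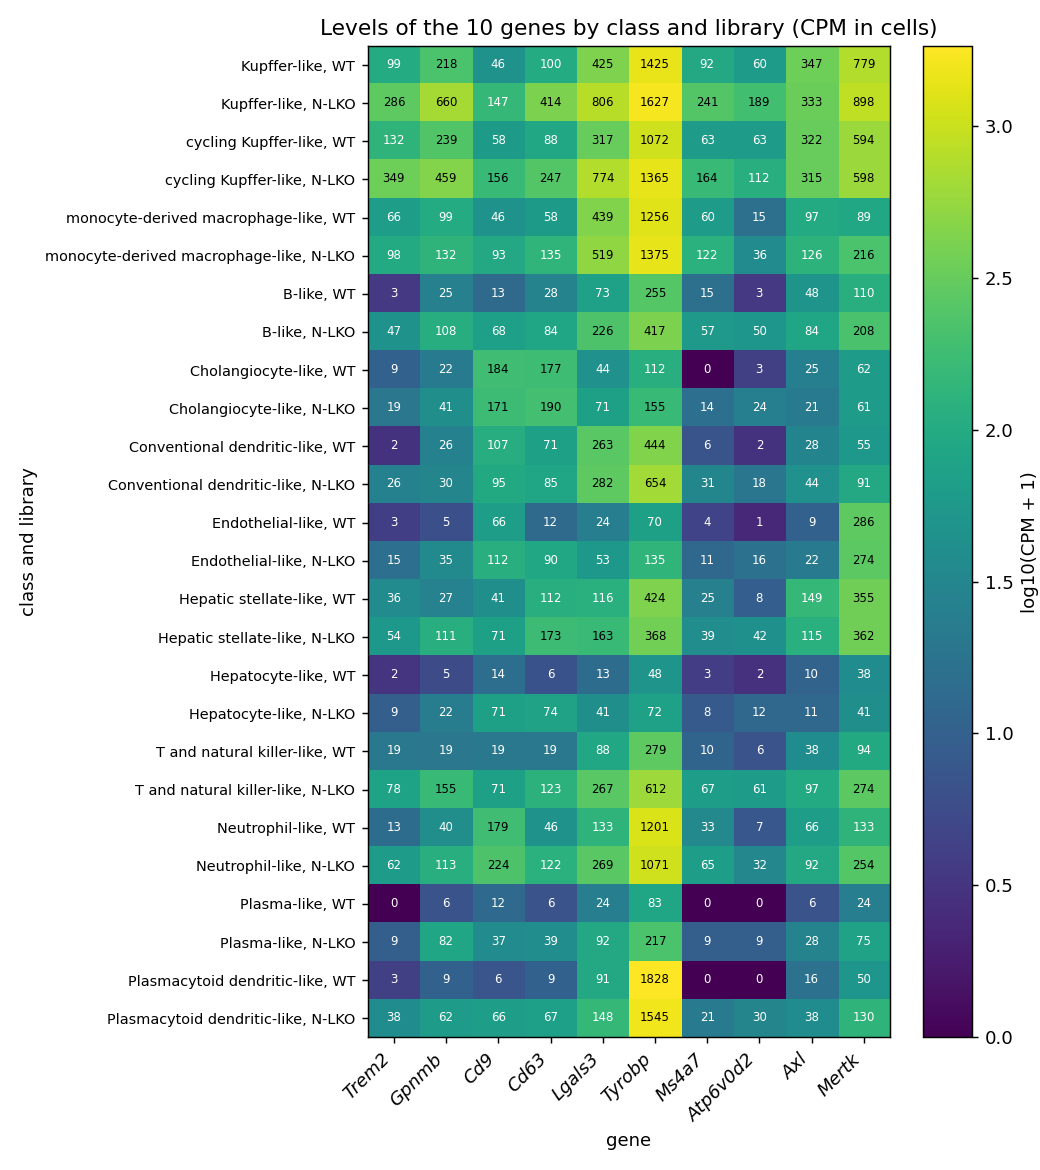
Level of each of the 10 genes (columns) in 13 cell classes of each library (rows); color is log10(CPM + 1) and the number in each cell is the CPM. The upper rows, of Kupffer-like cells, are brightest for Trem2, Gpnmb, Ms4a7, Atp6v0d2, Axl and Mertk, while Cd9 is also bright in cholangiocyte-like and neutrophil-like rows and Tyrobp in most leukocyte rows.

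For Cd63 and Lgals3 the order of the classes depended on the library. Cd63, a tetraspanin of late endosomes and lysosomes, was highest in cholangiocyte-like cells in WT (177 CPM, 134 to 230), above Kupffer-like cells (100.2 CPM, 87.1 to 115). In N-LKO the Kupffer-like cells were at 414 CPM (396 to 432), above cholangiocyte-like cells at 190.4 CPM (163 to 221). Lgals3, encoding the sugar-binding protein galectin-3, was alike in the monocyte-derived macrophage-like and Kupffer-like cells of WT (439 and 425 CPM), while in N-LKO Kupffer-like cells stood at 806 CPM and monocyte-derived macrophage-like cells at 519 CPM, with intervals apart.

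In Kupffer-like cells, 6 of the 10 genes were at least 2-fold higher in N-LKO than in WT (Trem2, Gpnmb, Cd9, Cd63, Ms4a7 and Atp6v0d2) and none was 2-fold lower. Over all 10732 genes that reached 5 CPM in either library, 5.44% were at least 2-fold higher and 6.87% at least 2-fold lower. The median log2 ratio of the 10 genes was 1.45, against -0.07 over all these genes. The 10 genes had been chosen with earlier results of these data known. Their comparison with all genes, here and below, is therefore a description. A finer cluster of 1427 N-LKO cells, described below, was named only as macrophage lineage. Finer clusters that the Kupffer markers named held 1434 WT and 1614 N-LKO cells, against 1455 and 3100 in the Kupffer-like class. The mitochondrial share of UMIs in this class was 11.4% in WT and 15.8% in N-LKO (11.9% and 18.4% in monocyte-derived macrophage-like cells), and the median log2 ratio of all genes ran from -0.29 in the shortest to 0.18 in the longest 20% of genes by span. Their part in the result was not tested beyond the count with a mitochondrial limit of 10%, which was 7. Differences were seen for the receptor Trem2 and not, at this size, for its adaptor.

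Trem2, the lipid-sensing receptor, was at 99.3 CPM in WT Kupffer-like cells (86.3 to 114; 209 UMIs) and at 286 CPM in N-LKO (271 to 301; 1409 UMIs). Its log2 ratio was 1.52 (95% interval 1.32 to 1.74). Tyrobp, through which TREM2 signals, was at 1425 and 1627 CPM, a log2 ratio of 0.19 (0.13 to 0.25). The TAM receptors resembled Tyrobp in this. Axl was at 347 and 333 CPM, a log2 ratio of -0.06 (-0.19 to 0.07), and Mertk at 779 and 898 CPM, a log2 ratio of 0.20 (0.12 to 0.29). Among the 4 receptor and adaptor genes, Trem2 was thus the one that differed by over 2-fold.

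Gpnmb, a glycoprotein of macrophages loaded with lipid or cell debris, was at 218 CPM in WT (199 to 239) and at 660 CPM in N-LKO (638 to 683). Its log2 ratio was 1.59 (1.45 to 1.74). Cd63 showed the largest ratio of the 10, with 100.2 CPM against 414 CPM and a log2 ratio of 2.04 (1.84 to 2.26). Cd9 was at 45.6 and 147 CPM (log2 ratio 1.68, 1.38 to 2.01). Ms4a7, a 4-transmembrane protein known as a marker of recruited and tissue macrophages, was at 92.1 and 241 CPM (log2 ratio 1.38, 1.17 to 1.61). Atp6v0d2, a macrophage and osteoclast form of the d subunit of the proton pump that acidifies lysosomes, was at 59.8 and 189 CPM, a log2 ratio of 1.65 (1.39 to 1.94). Lgals3 lay just under the 2-fold limit, at 425 and 806 CPM with a log2 ratio of 0.92 (0.82 to 1.03).

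**Figure D2:**
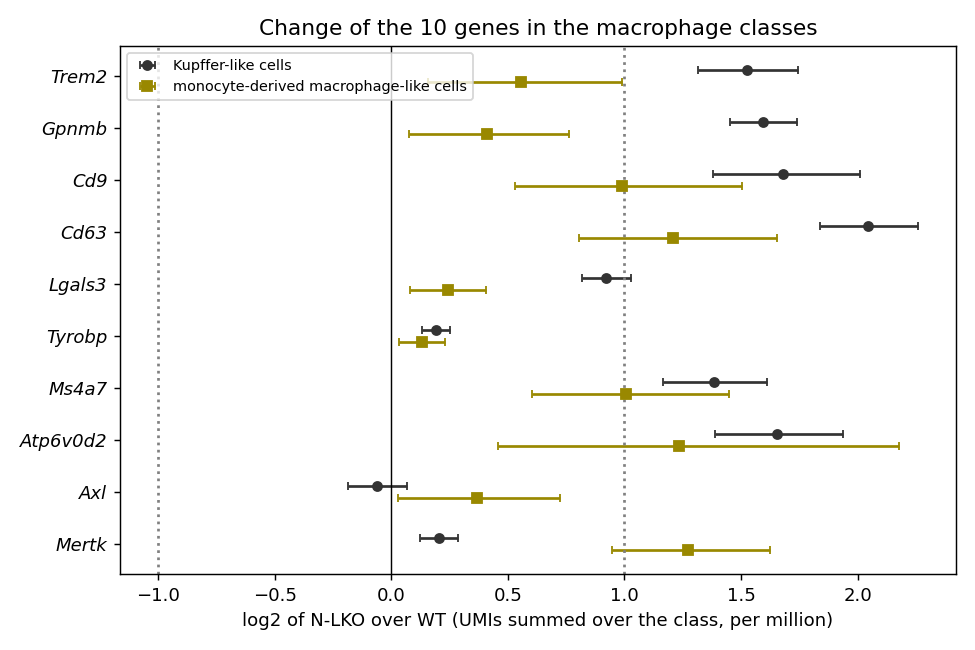
Log2 ratio of N-LKO over WT for each gene in Kupffer-like (circles) and monocyte-derived macrophage-like cells (squares), with exact 95% counting intervals; dotted lines mark 2-fold. In Kupffer-like cells 6 genes lie beyond 2-fold, Lgals3 at 0.92, and Tyrobp, Axl and Mertk near 0; in the other class the intervals are wider and nearer to 0 for Trem2 and Gpnmb.

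The free RNA of the suspension was small beside these levels. Taking the most free RNA that the markers of foreign cell types allow (34.7% of UMIs in WT and 33.1% in N-LKO Kupffer-like cells), the profile of barcodes under 500 UMIs would supply 1.66 and 7.61 CPM of Trem2 in WT and N-LKO. For Gpnmb it would supply 2.17 and 17.1 CPM. The 6 genes remained over 2-fold higher after this was subtracted. They also remained so without the cells whose barcode the libraries shared, an alternative added after seeing the data.

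The class was narrowed in 2 ways added after seeing the data. Among Kupffer-like cells with at least 1 Clec4f UMI (1034 WT and 1347 N-LKO cells), Trem2 was at 75.2 and 205 CPM and Gpnmb at 148 and 399 CPM. Of the 10 genes, 5 stayed at least 2-fold higher, Ms4a7 lying at a log2 ratio of 0.93. With only finer clusters that the Kupffer markers named (1434 WT and 1614 N-LKO cells), 4 stayed so, and Ms4a7 (0.63) and Atp6v0d2 (0.92) were under the limit. Trem2, Gpnmb, Cd9 and Cd63 were at least 2-fold higher in both. The share of all genes past 2-fold is given for the whole class only (5.44% higher and 6.87% lower), not for these narrowed sets.

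Shares of cells with a transcript, which at these counts follow the mean level, differed likewise. After each cell had been thinned to 1000 UMIs, a Trem2 UMI was found in 7.63% of WT Kupffer-like cells (6.32 to 9.11) and in 22.3% of N-LKO ones (20.9 to 23.8). The unthinned shares were 11.1% and 31.4%. For Gpnmb the thinned shares were 8.73% and 29.9%, for Cd63 7.42% and 28.7%, for Ms4a7 8.25% and 20%, for Cd9 4.60% and 13.3%, and for Atp6v0d2 3.30% and 13.1%. As a background, hepatocyte-like cells held a Trem2 UMI in 0.22% of WT and 0.71% of N-LKO cells and a Gpnmb UMI in 0.50% and 2.47%, at medians of 1509 and 1959 UMIs against 1366 and 1456 UMIs in Kupffer-like cells. Lymphocytes had a higher background in N-LKO, with a Trem2 UMI in 0.77% of WT and 5.97% of N-LKO T and natural killer-like cells and a Gpnmb UMI in 1.19% and 8.93%, at medians of 1188 and 1348 UMIs. Tyrobp was found in 69.5% and 73.6% of Kupffer-like cells, Mertk in 49.8% and 54.8%, and Axl in 29.97% and 27.6%.

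At 1000 UMIs per cell, WT Kupffer-like cells held UMIs of 2.18 of the 10 genes on average and N-LKO ones of 3.26. At least 3 of the 10 were found in 36.0% of WT cells (33.5 to 38.5) and 65.4% of N-LKO cells (63.7 to 67.0), and at least 4 in 12.3% and 40.9%. In monocyte-derived macrophage-like cells the shares with at least 3 were 11.8% and 22.2%. Outside the macrophages these shares were 0.44% and 2.76% in endothelial-like, 2.82% and 15.8% in T and natural killer-like, 3.91% and 9.60% in B-like, 8.26% and 19.8% in neutrophil-like and 9.50% and 13.1% in hepatic stellate-like cells. The shares of the monocyte-derived macrophage-like cells were thus close to those of neutrophil-like cells.

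**Figure D3:**
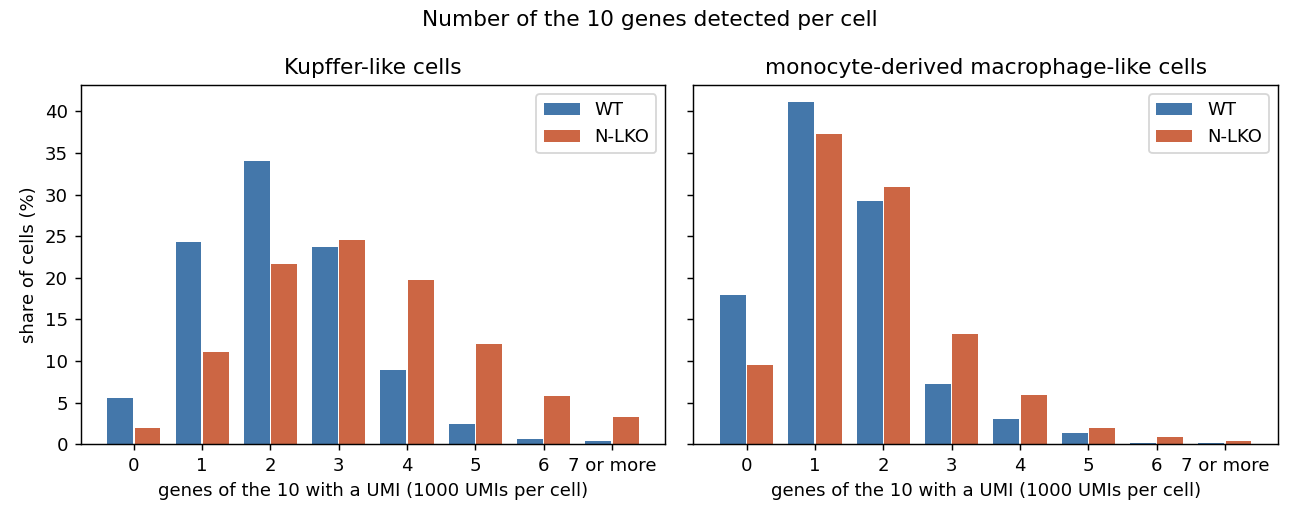
Share of cells (y axis, percent) by how many of the 10 genes had a UMI after thinning to 1000 UMIs per cell (x axis), for Kupffer-like and monocyte-derived macrophage-like cells of WT (blue) and N-LKO (orange). The Kupffer-like distribution is centered at 2 genes in WT and at 3 in N-LKO.

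Within each library the lysosomal and debris-linked genes were found together, and the TAM receptors were not tied to them. Among WT Kupffer-like cells with a Gpnmb UMI, 21.3% (14.5 to 29.4) also held an Atp6v0d2 UMI, against 1.58% (0.98 to 2.41) of those without. In N-LKO these shares were 27.2% and 7.09%. Cd63 was found in 25.2% of WT cells with and 5.72% without a Gpnmb UMI, and in 39.9% and 23.9% in N-LKO. Mertk did not follow this, with 45.7% and 50.2% in WT and 54.4% and 55.0% in N-LKO, and Axl had 22.8% and 30.7% in WT and 26.5% and 28.1% in N-LKO. Cells were thinned to the same depth, and cells of 1 library are not replicates.

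Clustering macrophage-lineage cells more finely, again without the 10 genes, gave a Clec4f-high and a Clec4f-low cluster as the largest pair in each library. In WT, cluster 4 (668 cells) had 2446 CPM of Clec4f and 425 CPM of Timd4, and cluster 3 (751 cells) had 838 and 23.1 CPM. Gpnmb was at 38.4 CPM in cluster 4 and 266 CPM in cluster 3, Trem2 at 39.5 and 129 CPM, Cd63 at 19.8 and 138 CPM, and Atp6v0d2 at 8.78 and 79.9 CPM. In WT the 4 genes were thus higher in the Timd4-low cluster. In N-LKO, cluster 1 (1227 cells) had 1556 CPM of Clec4f and 74.6 CPM of Timd4, and cluster 0 (1427 cells), which the markers named only as macrophage lineage, had 197 and 5.55 CPM.

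Gpnmb was at 324 CPM in the N-LKO cluster 1 and at 1017 CPM in cluster 0. Trem2 stood at 213 and 381 CPM, Cd63 at 301 and 557 CPM, Ms4a7 at 128 and 359 CPM, and Lgals3 at 565 and 1079 CPM. In both libraries these 5 genes were higher where Clec4f and Timd4 were lower. Mertk ran the other way in N-LKO, at 1084 CPM in cluster 1 and 744 CPM in cluster 0, and Tyrobp was at 1722 and 1651 CPM. Compared across libraries, Clec4f-high cells of N-LKO (cluster 1) exceeded Clec4f-high cells of WT (cluster 4) for Trem2, Gpnmb, Cd63 and Atp6v0d2 (86.9 against 8.78 CPM), and were closer to the Clec4f-low WT cluster 3. These clusters are not matched between the libraries.

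**Figure D4:**
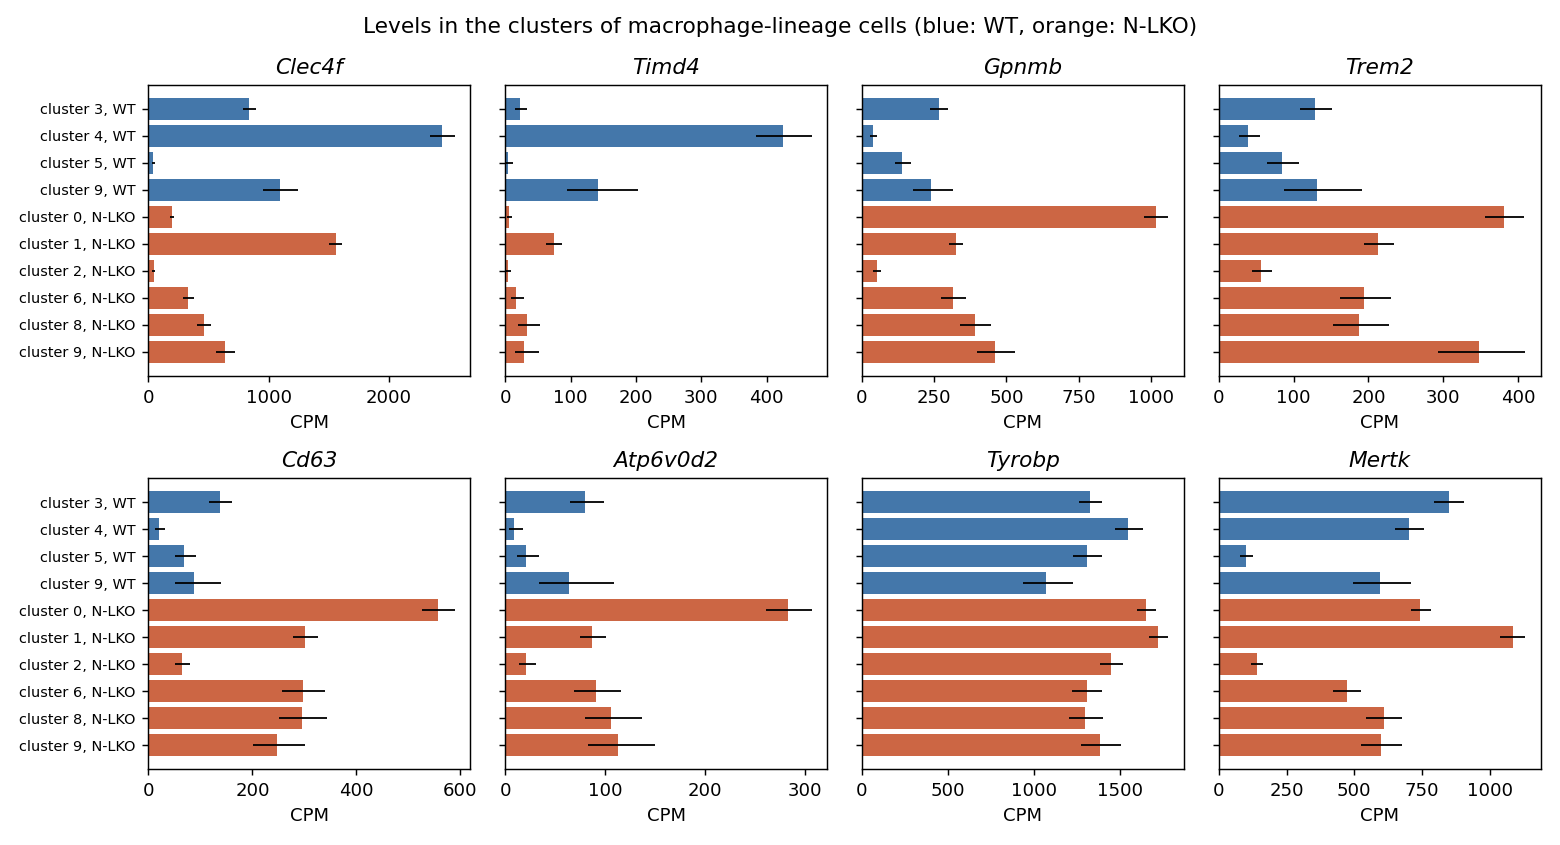
Level (CPM, bars from 0, with exact 95% counting intervals) of the resident markers Clec4f and Timd4 and of 6 of the 10 genes in finer clusters of macrophage-lineage cells, WT in blue and N-LKO in orange. Gpnmb, Trem2, Cd63 and Atp6v0d2 are highest, of the clusters shown, in the N-LKO cluster 0, where Clec4f is 197 CPM; clusters 2 and 5 are monocyte-derived macrophage-like and cluster 9 is cycling.

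Kupffer-like cells were also sorted by a single resident transcript. WT cells with a Timd4 UMI (309 cells) had 54.2 CPM of Gpnmb and 31.6 CPM of Trem2, and WT cells without one (1146 cells) had 262 and 117 CPM. In N-LKO, 145 cells with a Timd4 UMI had 319 CPM of Gpnmb and 226 CPM of Trem2, and 2955 cells without had 678 and 289 CPM. Gpnmb was higher without Timd4 in both libraries with intervals apart, whereas for Trem2 in N-LKO the intervals (171 to 294 and 274 to 305) overlapped. Median depth was 1391 and 1356 UMIs in the WT groups and 1621 and 1451 UMIs in the N-LKO groups.

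The levels of Gpnmb, Atp6v0d2, Trem2, Cd63 and Lgals3 also moved with the total UMIs of a cell, and those of Tyrobp and Mertk did so less steeply. Those of Ms4a7 (WT 81.0 to 106 CPM, N-LKO 205 to 301 CPM) showed no such order. Gpnmb ranged from 94.2 CPM (71.3 to 122) in the shallowest group of WT Kupffer-like cells to 842 CPM (736 to 959) in the 112 WT cells of 2000 UMIs or more. In N-LKO the range was 471 CPM (430 to 516) to 926 CPM (875 to 979). Atp6v0d2 went from 19.8 to 258 CPM in WT and from 131 to 256 CPM in N-LKO. Cd63 went from 64.5 to 251 CPM in WT and from 320 to 533 CPM in N-LKO. For Lgals3 the ranges were 309 to 875 CPM in WT and 648 to 1034 CPM in N-LKO. In the group of 2000 UMIs or more, Gpnmb, Atp6v0d2 and Trem2 (222 and 346 CPM) therefore differed by less than 2-fold. Cd9 (62.8 and 150.1 CPM), Cd63 (251 and 533 CPM) and Ms4a7 (96.0 and 238 CPM) still differed by over 2-fold there. Few WT cells carried these UMIs, since 23 cells held 50% of all WT Gpnmb UMIs and 1 cell held 31 of 460, whereas in N-LKO the corresponding number was 205 cells. Whether the deepest WT cells are single cells was not tested beyond the doublet score.

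**Figure D5:**
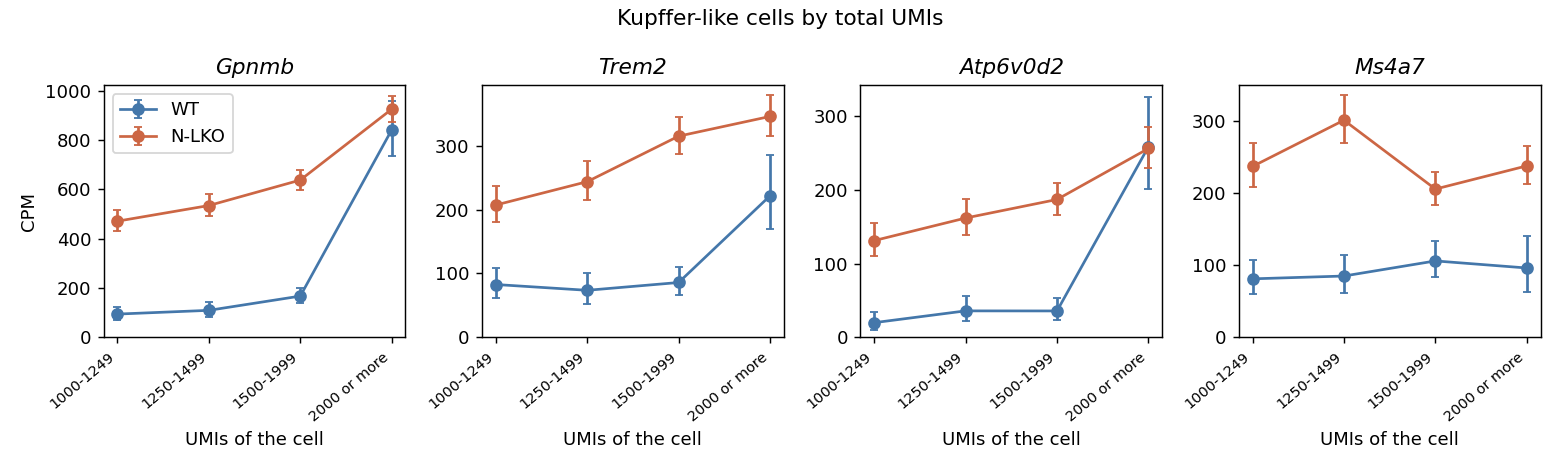
Level (CPM, y axis from 0, with exact 95% counting intervals) of Gpnmb, Trem2, Atp6v0d2 and Ms4a7 in Kupffer-like cells grouped by total UMIs (x axis), WT in blue and N-LKO in orange. N-LKO lies above WT below 2000 UMIs for each gene; at 2000 UMIs or more the 2 libraries meet for Gpnmb and Atp6v0d2 and stay apart for Ms4a7.

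Cycling Kupffer-like cells (113 WT and 185 N-LKO cells) gave 5 of 10 genes at least 2-fold higher in N-LKO (Trem2, Cd9, Cd63, Lgals3 and Ms4a7) and none lower. Over all genes of the class 11.3% were higher and 13.4% lower. Trem2 was at 132 CPM (86.7 to 191) and 349 CPM (294 to 411), and Lgals3 at 317 and 774 CPM. Gpnmb was at 239 and 459 CPM, a log2 ratio of 0.93 (0.48 to 1.43). Axl and Mertk were again close to 0 on this scale (-0.03 and 0.01).

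In monocyte-derived macrophage-like cells the result depended on where the class ended. There 4 of the 10 genes were at least 2-fold higher in N-LKO and none lower, against 8.77% higher and 11.3% lower over all 11006 genes. The 4 were Cd63 (58.2 and 135 CPM, log2 ratio 1.21, 0.80 to 1.65), Mertk (89.3 and 216 CPM, 1.27, 0.94 to 1.62), Atp6v0d2 (15.1 and 36.3 CPM, 1.23, 0.46 to 2.18) and Ms4a7 (60.2 and 122 CPM, 1.01, 0.60 to 1.45). Cd9 lay just under the limit at 0.99 (0.53 to 1.502). Trem2, at 66.2 and 98.0 CPM, had a log2 ratio of 0.56 (0.16 to 0.99), and Gpnmb, at 99.4 and 132 CPM, one of 0.41 (0.08 to 0.76). Tyrobp was at 1256 and 1375 CPM, Lgals3 at 439 and 519 CPM, and Axl at 97.4 and 126 CPM.

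In the same class the 10 Kupffer markers summed to 426 CPM (WT) and 991 CPM (N-LKO), none of them at 0 in WT, and C1qa, C1qb and C1qc to 773 and 1310 CPM. Without the cells that held any Kupffer marker UMI (521 WT and 805 N-LKO cells left, an alternative added after seeing the data), the genes at least 2-fold higher were 2, Cd63 (1.05) and Mertk (1.21), and Gpnmb was at -0.15. The number of genes called ranged from 0 to 8 over all alternatives, and the log2 ratio of Gpnmb from -1.26 to 4.86, the upper ends coming from cells with at least 2000 UMIs, of which WT had 21.

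Outside the macrophage lineage, C1qa, C1qb and C1qc served as a yardstick for macrophage RNA. In endothelial-like cells these summed to 3.46% of their Kupffer-like level in WT and 5.75% in N-LKO. Trem2, Gpnmb, Ms4a7, Atp6v0d2 and Axl lay at 2.21% to 8.39% of their own Kupffer-like level there. Mertk in contrast stood at 36.7% and 30.5% (286 and 274 CPM), and Cd9 at 144% and 76.1%. Hepatic stellate-like cells had C1q shares of 28.6% and 19.9%, Kupffer marker shares of 34.0% and 34.2%, Tyrobp shares of 29.8% and 22.6%, and Axl shares of 42.8% and 34.5%, so that Axl in N-LKO was level with the Kupffer markers.

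In the T and natural killer-like cluster all 10 genes were at least 2-fold higher in N-LKO, against 12.2% higher and 8.35% lower of 11610 genes. In N-LKO they lay between 23.5% and 48.4% of their Kupffer-like level, next to 25.9% for C1q and 25.8% for the Kupffer markers. In WT, C1q was at 12.1% and the 10 genes at 8.62% to 42.7%. Trem2 went from 19.5 to 77.6 CPM and Gpnmb from 18.8 to 155 CPM, and C1q was at 551 and 1181 CPM. The part of macrophage RNA in these lymphocyte values was not tested.

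In hepatocyte-like cells 7 of the 10 genes were at least 2-fold higher in N-LKO, against 5.65% higher and 2.76% lower of 9905 genes, while C1q was at 131 and 149.6 CPM. Cd63 was at 5.57 CPM in WT (90 UMIs) and 73.8 CPM in N-LKO (344 UMIs), a log2 ratio of 3.72 (3.39 to 4.08), and Cd9 at 14.0 and 71.2 CPM (2.35, 2.10 to 2.60). Gpnmb was at 4.76 and 22.3 CPM and Trem2 at 2.10 and 8.58 CPM, and free RNA could supply up to 2.65 and 11.0 CPM of Gpnmb and up to 2.02 and 4.90 CPM of Trem2. In WT, Trem2 and Atp6v0d2 were not above what free RNA could supply. The most free RNA possible for Cd63 was 3.69 and 16.2 CPM, below the levels measured. WT hepatocyte-like cells came mostly from clusters led by Serpina3k or Fitm1, and N-LKO ones from a cluster led by the acute phase genes Saa1 and Saa2, so different clusters were compared. The N-LKO class held 2107 cells. A cluster of 2615 N-LKO and 8 WT cells, for which hepatocyte markers scored highest, stayed unnamed and entered no class. The same held for a cluster of 355 WT cells and 1 N-LKO cell.

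In the remaining classes none of the 10 genes was 2-fold lower, and the counts of those at least 2-fold higher ran from 2 to 10. Endothelial-like cells had 7 (8.18% of all genes higher and 7.96% lower) and B-like cells 7 (13.5% and 13.9%). In B-like cells Trem2 and Atp6v0d2 rested on 1 WT UMI each. Plasma-like cells had 10 (17.9% and 22.5%) and plasmacytoid dendritic-like cells 8 (13.6% and 13.5%), and in both of them Ms4a7 and Atp6v0d2 had no UMI in WT. In plasma-like cells Trem2, Ms4a7 and Atp6v0d2 rested on 0 UMIs in WT and 4 in N-LKO, the intervals of these and of Cd9 and Axl included 0, and Trem2, Cd63, Ms4a7 and Atp6v0d2 were not above the most that free RNA could supply in either library. Neutrophil-like cells had 4 (12.4% and 22.5%), of which Trem2 and Atp6v0d2 rested on 2 and 1 UMIs in WT. The interval of Atp6v0d2 included 0 there. Conventional dendritic-like cells had 3 (9.57% and 10.6%). These were Trem2, Ms4a7 and Atp6v0d2, which rested on 1, 3 and 1 UMIs in WT. The fewest were in hepatic stellate-like cells with 2 (9.76% and 7.95%) and cholangiocyte-like cells with 2 (12.3% and 11.9%). In cholangiocyte-like cells these were Ms4a7 and Atp6v0d2, which rested on 0 and 1 UMIs in WT. The C1q yardstick was higher in N-LKO in each of these classes except hepatic stellate-like and cholangiocyte-like cells.

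The other genes of the pathways were taken from lists chosen with earlier results of these data known. Of 24 other lipid-associated macrophage genes with sufficient counts in Kupffer-like cells, 9 were at least 2-fold higher in N-LKO and none lower, beside 5.44% and 6.87% of all genes, with a median log2 ratio of 0.69. Spp1, encoding osteopontin, was at 24.7 and 176 CPM (log2 ratio 2.82), the fatty acid-binding protein gene Fabp4 at 21.4 and 96.6 CPM (2.16), and Emp1, an epithelial membrane protein gene, at 4.75 and 23.5 CPM (2.25). In monocyte-derived macrophage-like cells 5 of 24 were higher and 1 lower, beside 8.77% and 11.3% of all genes, and Mmp12, encoding macrophage elastase, led there with 76.3 and 243 CPM (1.66).

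Of 17 partner, ligand and signal genes of TREM2 and TYROBP in Kupffer-like cells, 2 were at least 2-fold higher and none lower, beside 5.44% and 6.87% of all genes, with a median of -0.03. The 2 were the adaptor gene Blnk (39.9 and 92.9 CPM, log2 ratio 1.21) and Clu (116 and 239.9 CPM, 1.04), whose product clusterin is a TREM2 ligand. The receptor gene Treml4 was at 93.1 and 61.3 CPM (-0.60).

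Among 18 TAM ligand and apoptotic cell uptake genes, 3 were at least 2-fold higher in Kupffer-like cells, beside 5.44% of all genes, with a median of 0.40. Anxa1, encoding the phospholipid-binding annexin A1, was at 13.8 and 43.6 CPM (1.64), and Stab1, a scavenger receptor, at 36.1 and 78.9 CPM (1.12). The other gene past 2-fold lay under the 20 CPM set for naming. The lipid-sensing nuclear receptor Pparg was under 2-fold, at 114 and 192 CPM (0.75). In monocyte-derived macrophage-like cells 3 of 18 were higher, beside 8.77% of all genes, including the cholesterol exporter Abca1 (149.6 and 424 CPM) and Pros1, the gene of protein S (22.1 and 58.7 CPM, 1.38).

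None of the 23 other proton pump, lysosomal membrane and MiT/TFE factor genes was 2-fold different in Kupffer-like cells. Of all genes, 5.44% were higher and 6.87% lower at this limit. The median of the 23 was 0.14. The ubiquitous d subunit gene Atp6v0d1 was at 113 and 104 CPM (log2 ratio -0.12), and the widest difference was that of Atp6v0a1, another subunit (82.6 and 156 CPM, 0.91). Mitf, a transcription factor of lysosomal genes, was at 352 and 463 CPM (0.39).

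Of 11 tetraspanins besides Cd9 and Cd63, 1 was at least 2-fold higher in Kupffer-like cells and none lower, with a median of 0.03. Of all genes, 5.44% were higher and 6.87% lower. The tetraspanin was Tspan33, at 2.37 and 6.90 CPM, near the 5 CPM limit. Tspan14 was at 52.7 and 83.0 CPM (0.65). Galectins diverged, with Lgals1 at 42.7 and 115 CPM (1.42) and Lgals9 at 356 and 196 CPM (-0.86). Of 8 other Ms4a genes, 2 were at least 2-fold higher and none lower, beside 5.44% and 6.87% of all genes. A log2 ratio above 0 was found for 7 of them, with a median of 0.74. Ms4a6b (0.77), Ms4a6d (0.75) and Ms4a8a (-0.74) had the largest ratios among those with at least 20 CPM.

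Over 15 points, each a finer cluster in 1 library with at least 50 cells, of which 3 were conventional dendritic-like and 1 was mixed and led by the dendritic gene Cd209a, the genes whose level was most like the mean profile of the 10 were Mmp12 (Pearson r = 0.946), Apoe (0.925), Daglb (0.925), Lpl (0.916) and Myof (0.911). The points share libraries and set macrophages beside dendritic cells, so these values are a description. Apoe encodes apolipoprotein E and Lpl lipoprotein lipase. Of the 10 genes, Gpnmb had the highest r with the mean (0.915) and Tyrobp the lowest (0.326). Each of the 10 is itself part of that mean, so these values do not compare with those of Mmp12 and the other genes named.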

How the data were processed

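The authors deposited raw UMI counts for each gene in each barcode, as whole numbers made with Cell Ranger (7.1.0 per the file headers) from 10x 3′ v3 libraries. The submitters' processing notes name mm9 and Seurat; gene identifiers matched GRCm38 annotation, and the files hold no coordinates. Members and gene lists were chosen with earlier results of these data known. Barcodes with at least 1000 UMIs, 400 genes and at most 30% mitochondrial UMIs were kept, and doublets above a Scrublet score of 0.25 (scanpy 1.11.5) were removed (8.55% in WT, 10.6% in N-LKO). The 2000 most variable genes, without the 10 genes and the lists, gave 30 principal components and leidenalg 0.10.2 clusters at resolution 0.3, named from marker lists. Macrophage-lineage cells were clustered again at 0.3 and 0.8. Mixed or unnamed clusters entered no class. CPM carry Poisson, ratios conditional binomial and shares Clopper-Pearson 95% intervals, which cover counting error only. Log2 ratios add 0.5 UMI to each sum. A gene was called at 2-fold with at least 5 CPM in 1 library. Named genes were the 10 genes, the 3 of each list with the largest ratio at 20 CPM or more in either macrophage class, the 5 most alike, and class markers; Tspan33, Atp6v0d1, Mitf and Nus1 were added after values were seen. Scripts were tested on simulated data.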

Additional observations from a re-analysis of the deposited data

How the results depend on the processing

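No paired analysis was possible because each group had 1 library, so that the shared replicate number pairs no samples within a group comparison. The count of genes at least 2-fold higher in Kupffer-like cells (6) ranged from 3 to 7 over 17 alternatives, 3 being the value with at least 2000 UMIs per cell, which leaves 112 WT cells and at which Atp6v0d2 changed sign (-0.021). In monocyte-derived macrophage-like cells the count (4) became 8 with at least 2000 UMIs, 2 with at least 500, 1 with free RNA subtracted, 1 with the members among the clustering genes, 0 at a clustering resolution of 0.8, 1 with classes from the clusters of all cells and 2 without cells holding a Kupffer marker UMI. With finer clusters it became 0, with 1 gene lower (Gpnmb, -1.26). Of the 4 genes called in the main class, Ms4a7 (-0.39) and Atp6v0d2 (-0.046) changed sign there. Trem2 was at 83.9 CPM in the WT cluster 5 and at 56.5 CPM in the N-LKO cluster 2. Over all alternatives the lowest log2 ratios were also negative for Trem2 (-0.47), Axl (-0.245) and Lgals3 (-0.012). The cause was not tested; the classes from clusters of all cells, the finer clusters and the removal of cells with Kupffer marker UMIs were added after seeing the data. Without thinning, the shares of cells with at least 3 of the genes were 50.7% in WT and 79.7% in N-LKO Kupffer-like cells, and 16.1% and 30.9% in monocyte-derived macrophage-like cells. Among the log2 ratios in Kupffer-like cells, Trem2 ranged from 0.63 to 1.60 over the alternatives, Gpnmb from 0.13 to 1.95 and Cd63 from 1.07 to 2.19. Shares over all genes are given for the main classes only, not for the alternatives.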

Other observations

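A cluster of 85 N-LKO cells, which the markers did not name, was led by Tenm4, St18, Ank2 and Atp6v0d2. It held 1046 CPM of Gpnmb, 528 CPM of Atp6v0d2 and 1345 CPM of Mertk beside 202 CPM of Tyrobp, 87.9 CPM of Trem2 and 387 CPM of C1qa. No WT cell lay in it. A further cluster of 417 N-LKO and 12 WT cells was led by the inflammatory genes Cxcl2, Cxcl10 and Tnf and had, in its N-LKO cells, 194 CPM of Trem2, 316 CPM of Gpnmb and 331 CPM of Clec4f. The cluster that held both Kupffer and endothelial markers (579 WT and 1469 N-LKO cells) entered no class, and in it Trem2 was at 40.5 and 159 CPM, Gpnmb at 80.0 and 287 CPM and Cd63 at 46.6 and 230 CPM.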
